A study of Rattus norvegicus with 24 samples.

Results

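The late step of recovery from kidney ischemia was examined in renal cortex by setting the arrays of 120 h of reperfusion against those of 24 h. The 6 arrays, 3 at each time, were taken by their titles from the 24 arrays of the series. All rats were Wistar rats aged 3 months, per the labels. The 120 h and 24 h groups had both undergone bilateral renal ischemia of 20 min, and cortex was taken at 120 h or 24 h after blood flow returned. Cortex of sham rats and cortex at 6 h of reperfusion, and medulla at 24 h and 120 h, with 3 arrays each, are given only beside these values. The labels name no promoter, transgene, clone or pool and do not say whether replicates were separate animals, so each p-value covers only the variation among these arrays, part of which may be technical.

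When blood flow returns to a kidney, proximal tubule cells carry much of the damage. Many lose their transport and metabolic genes, some die, and survivors re-enter the cell cycle to replace them. Leukocytes enter during the same days, first neutrophils and monocytes and later macrophages and lymphocytes, and macrophages that clear debris carry the scavenger and lectin receptors encoded by Mrc1 and Clec10a. Fibrinogen, haemopexin and other plasma proteins are acute phase products of liver, and fibrinogen chains are also made by injured kidney epithelium.

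RNA had been hybridised to Illumina bead arrays, which give 1 intensity per probe. Median intensity lay between 70.9 and 85.7 on the 6 arrays, and 11589 to 12536 probes (51.5% to 55.7%) were detected above background. Levels below are log2 of background-corrected, quantile-normalized intensity, differences are log2 of 120 h minus 24 h, and adjusted p-values come from limma with a threshold of 0.05. Some of the genes used to check the cortex label set the regions clearly apart. Nphs1 (a podocyte slit protein) averaged 10.11 at 120 h and 10.17 at 24 h, against 6.13 and 5.47 in medulla of the same times. Slc22a6 (a proximal tubule organic anion transporter) averaged 13.06 and 13.16 against 9.41 and 7.93, and Slc5a2, of the same segment, 10.03 and 9.81 against 6.15 and 5.17. Aqp2, the collecting duct water channel, was lower in cortex by its means (11.04 and 9.24 against 13.14 and 11.61). Its highest cortex array, 120 h replicate 3 (11.77), lay above its medulla mean at 24 h. Umod was lower by its means (13.78 and 12.77 against 14.36 and 13.84). Slc34a1 was higher by its means (13.28 and 12.32 against 11.23 and 8.23), but its lowest cortex array (11.6) lay below its highest medulla array (11.9). Podxl (10.68 and 11.11 against 10.13 and 10.76) and Kap (14.45 and 14.37 against 14.3 and 14.26) hardly differed between the regions. Of the 120 h arrays, replicate 2 had the highest mean of the 3 in 19 of 41 gene lists, among them macrophage, T cell, complement, extracellular matrix and injury genes, replicate 1 in 15 and replicate 3 in 7. Replicates 1 and 2 stood about equally far from their group (mean Pearson correlation with its other arrays over probes 0.9796 and 0.9797, against 0.9846 for replicate 3). One sham medulla array, replicate 1, resembled cortex in its proximal tubule level (mean 11.46, against 10.16 and 10.78 on the other sham medulla arrays). It is in no group compared here and enters the shared normalization, the choice of probes and the estimate of spread; without it 391 probes were called, in place of the 337 given below.

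Cell division genes made up the largest group that fell between the times, and the genes that rose included 3 of MHC class II and Gatm, an enzyme of proximal tubule. Of 14390 probes tested, 337 (2.34%) passed the threshold, 128 higher (0.89%) and 209 lower (1.45%) at 120 h, and their median differences were 1.13 and -1.28. Counted with 1 probe per gene, 92 of 9799 genes (0.939%) were higher and 158 (1.61%) lower. All 337 called probes had 3 arrays of 120 h beyond all 3 of 24 h; without regard to the test, the arrays of 12.4% of genes lay above and those of 13.9% below in this way. The number called fell to 209 without 24 h replicate 1, 135 without 24 h replicate 2, 143 without 120 h replicate 1 and 145 without 120 h replicate 3. It was 232 without 24 h replicate 3 and 226 without 120 h replicate 2. Each such fit has 1 sample less. Sizes depended on the background correction: of the 51 genes named below that passed, 26 changed by more than 1.5 times on the authors' normalized values, 12 with quantile normalization alone and 5 with a normexp offset of 50, and 7, 5 and 4 lost their call. The median difference of all genes tested was -0.01.

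**Figure D1:**
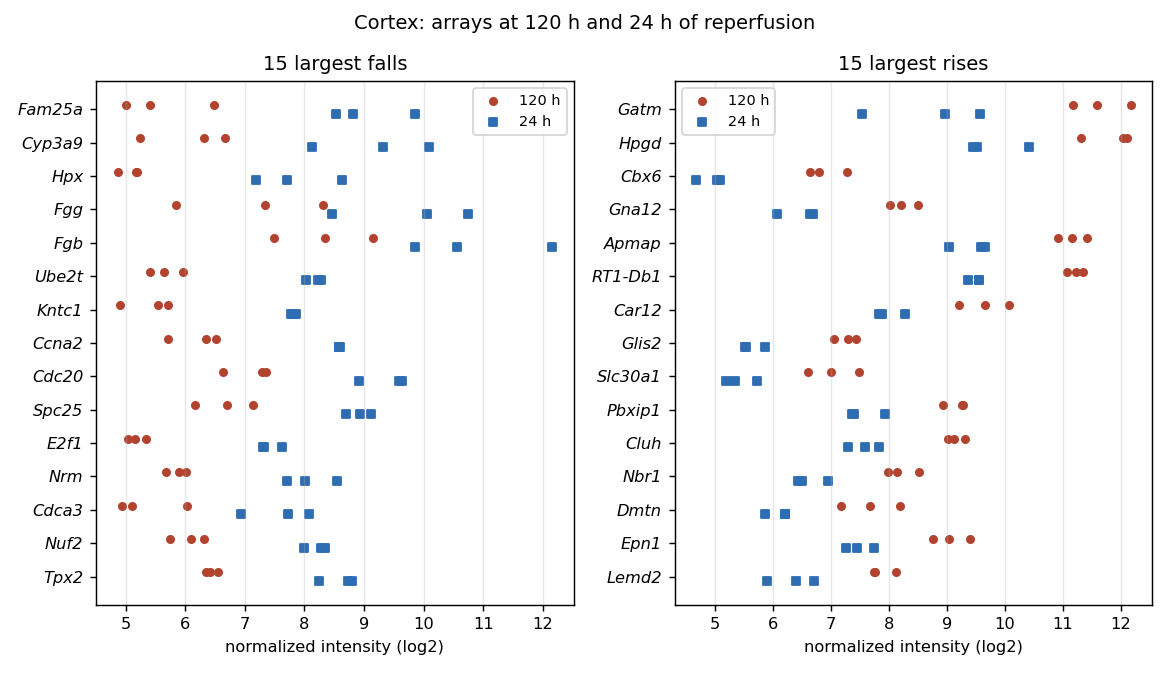
Normalized intensity (log2, x axis) of the 15 genes with the largest falls (left) and the 15 with the largest rises (right) among those past the threshold, on each of 3 cortex arrays at 120 h (red circles) and 3 at 24 h (blue squares). Probes without a gene symbol and symbols starting LOC, RGD or MGC were not ranked. In no gene shown do the 120 h and 24 h arrays overlap, as their choice required.

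Mitosis and spindle genes were lower at 120 h almost throughout: 37 of 51 tested passed the threshold as lower and 0 as higher, against the 1.61% of all genes that were lower, with a median difference of -1.39. In 48 of 51 the 3 arrays of 120 h lay below the 3 of 24 h, against 13.9% of all genes. The count was 23 without 120 h replicate 1 and between 25 and 34 without any other array. With the 5 members that no 120 h array detected set at their bound, the median was again -1.39. Under other processing the median was smaller, at -1.05 with a normexp offset of 50, -0.99 with quantile normalization alone and -0.85 on the authors' values. Kif11 was the member with a difference above 0, at 0.28.

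Ccna2 encodes cyclin A2, which carries cells through S phase into mitosis. It stood at 5.71, 6.52 and 6.35 on the 120 h arrays and at 8.60, 8.58 and 8.57 on the 24 h arrays. The groups were far apart and the 24 h arrays almost identical, and Ccna2 fell by 2.39 ± 0.31 (SE, 5.25-fold lower, adjusted p = 0.000266). Cdk1, the kinase that starts mitosis, had 7.79, 8.59 and 8.49 at 120 h, against 10.55, 10.31 and 10.04 at 24 h, and fell by 2.01 ± 0.37 (adjusted p = 0.00579). Cdc20, the activator of the ligase that ends metaphase, had 6.63, 7.29 and 7.35 at 120 h, against 9.64, 9.59 and 8.92 at 24 h, and fell by 2.29 ± 0.37 (adjusted p = 0.00168). In each of these genes 120 h replicate 1 was the lowest array. On the authors' values Ccna2 differed by -1.56.

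The outer kinetochore, which ties chromosomes to the spindle, was represented by Spc25 and Nuf2 of the Ndc80 complex. Spc25 had 6.17, 7.14 and 6.70 at 120 h, against 8.93, 9.11 and 8.69 at 24 h, and fell by 2.24 ± 0.28 (adjusted p = 0.000266). Nuf2 had 5.75, 6.31 and 6.09 at 120 h, against 8.35, 8.28 and 7.99 at 24 h, and fell by 2.15 ± 0.28 (adjusted p = 0.000266). Kntc1, which recruits checkpoint proteins to the kinetochore, fell by 2.43 ± 0.34 (adjusted p = 0.00062). Tpx2, a spindle assembly factor that activates Aurora A, fell by 2.15 ± 0.40 (adjusted p = 0.00626). Cdca3, which promotes entry into mitosis, fell by 2.22 ± 0.32 (adjusted p = 0.000743). Among genes outside the list, Ube2t, a ubiquitin-conjugating enzyme of DNA crosslink repair, fell by 2.51 ± 0.31 (adjusted p = 0.000266), and Nrm, an inner nuclear membrane protein, fell by 2.23 ± 0.33 (adjusted p = 0.000996). Each of the 10 genes named for the fall above passed the threshold in all 6 fits that left out 1 array. On the authors' values Ube2t, Kntc1, Nrm, Cdca3 and Nuf2 differed by -1.47, -1.31, -1.34, -1.16 and -1.33, and with quantile normalization alone Kntc1 and Cdca3 by -1.61 and -1.44.

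The levels at 120 h were still above those of sham cortex for several of these genes. Cdk1 averaged 5.02 in sham cortex, 6.17 at 6 h, 10.30 at 24 h and 8.29 at 120 h, and the difference from sham was 5.28 at 24 h (adjusted p = 3.91e-08) and 3.27 at 120 h (adjusted p = 5.49e-05). Ccna2, which no sham array detected, averaged 4.66 in sham cortex, 4.90 at 6 h, 8.58 at 24 h and 6.19 at 120 h. Over the mitosis list the median difference from sham was 2.15 at 24 h, with 46 of 51 members higher, and 0.80 at 120 h, with 19 higher; among all genes 14% were higher at 24 h and 3.07% at 120 h. These comparisons with sham share their 24 h and 120 h arrays with the late step, so their values stand side by side and are no separate evidence. In bulk tissue, fewer dividing cells and less of these transcripts per dividing cell cannot be told apart.

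**Figure D2:**
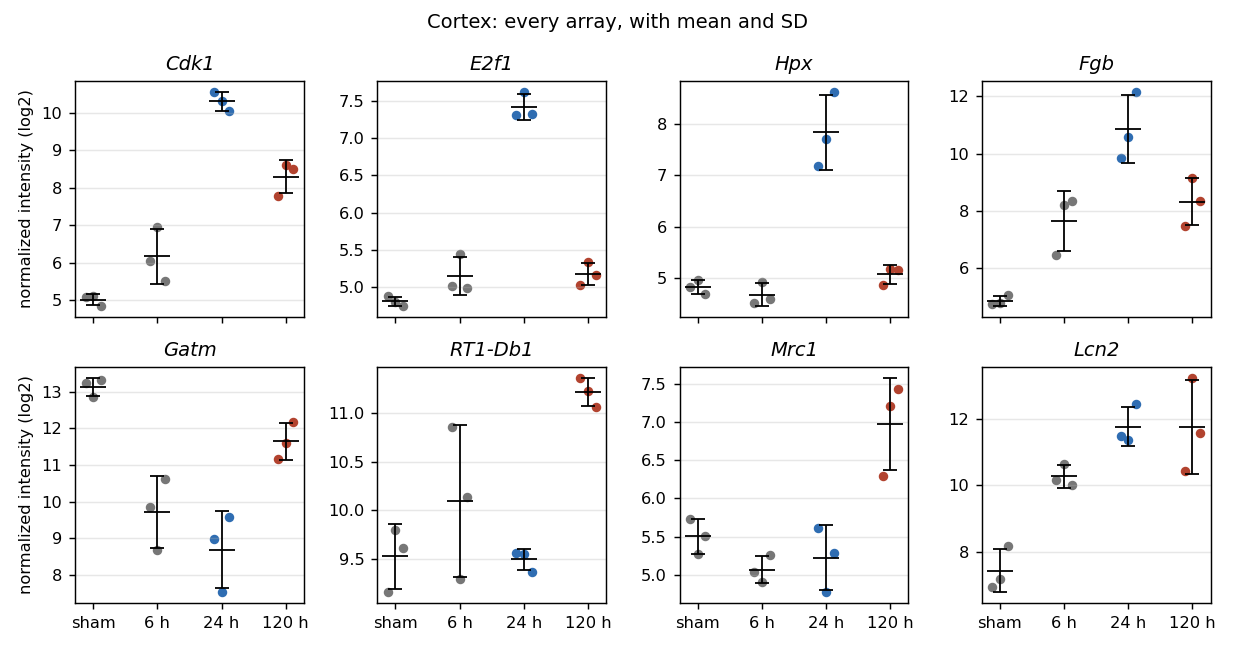
Normalized intensity (log2, y axis) of 8 genes on every cortex array of sham rats and of 6, 24 and 120 h of reperfusion, with the mean (bar) and SD of 3 arrays. Cdk1, E2f1, Hpx and Fgb peak at 24 h, Gatm is lowest at 24 h, RT1-Db1 is highest at 120 h, and Lcn2 spreads most widely at 120 h.

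DNA replication genes were also lower at 120 h, though fewer passed. Of 43 tested, 18 passed as lower and 0 as higher, against the 1.61% of all genes that were lower, with a median difference of -0.99. In 34 the arrays of 120 h all lay below those of 24 h, against 13.9% of all genes. The count that passed was 11 without 24 h replicate 2, 10 without 24 h replicate 3 and 8 without 120 h replicate 1. Together the mitosis and replication lists held 55 of the 158 genes that were lower (34.8%), and 94 of the 9799 genes tested.

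E2f1 encodes the transcription factor that turns on S phase genes. It had 5.04, 5.34 and 5.16 at 120 h, against 7.31, 7.62 and 7.32 at 24 h, so that the groups were separated by far more than their spread. It fell by 2.24 ± 0.21 (4.71-fold lower, adjusted p = 1.51e-05) to a level whose difference from sham cortex was 0.37 (adjusted p = 0.362). The E2f1 difference was -1.39 with quantile normalization alone and -1.11 on the authors' values, with adjusted p of 0.000107 and 0.000207. Pole2, a subunit of the leading-strand DNA polymerase epsilon, fell by 2.10 ± 0.32 (adjusted p = 0.00121). Pole, its catalytic subunit, fell by 2.04 ± 0.31 (adjusted p = 0.00121). Gins1, a subunit of the replicative helicase, had 5.23, 6.12 and 5.93 at 120 h, against 7.24, 7.51 and 8.01 at 24 h, and fell by 1.83 ± 0.33 (adjusted p = 0.00515). Asf1b, a histone chaperone detected on 1 of 3 arrays at 120 h and 3 of 3 at 24 h, fell by 1.86 ± 0.27 (adjusted p = 0.000785). These 5 genes passed in every fit that left out 1 array. On the authors' values Pole2, Pole, Gins1 and Asf1b differed by -1.19, -1.01, -1.0 and -0.82. With quantile normalization alone Pole and Asf1b differed by -1.27 and -1.07, and with an offset of 50 Asf1b by -1.14. Mcm6, a subunit of the MCM helicase, fell by 2.07 ± 0.41 (adjusted p = 0.0093), a call that ended without 24 h replicate 2 (-1.97, adjusted p = 0.052) or 120 h replicate 1 (-1.88, adjusted p = 0.0555).

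The promoters of the genes that fell together were searched for the sequences that cell cycle regulators bind. In the RefSeq promoters of assembly GRCr8, which run from 250 bases before to 50 bases after the gene start, 3 genes are shown because their transcripts fell and their promoters hold a match. Capitals mark the cell cycle homology region TTTGAA, bound by the DREAM complex, and the E2F site TTTGGCGC. Both strands were searched.
Cdk1, chr20:19265043-19265342, plus strand: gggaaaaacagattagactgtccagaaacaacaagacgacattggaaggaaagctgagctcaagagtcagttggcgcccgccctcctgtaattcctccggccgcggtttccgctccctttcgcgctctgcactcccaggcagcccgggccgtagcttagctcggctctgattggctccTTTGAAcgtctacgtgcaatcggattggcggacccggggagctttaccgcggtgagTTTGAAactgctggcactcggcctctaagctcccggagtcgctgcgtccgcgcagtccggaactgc
Cdc20, chr5:137255750-137256049, minus strand: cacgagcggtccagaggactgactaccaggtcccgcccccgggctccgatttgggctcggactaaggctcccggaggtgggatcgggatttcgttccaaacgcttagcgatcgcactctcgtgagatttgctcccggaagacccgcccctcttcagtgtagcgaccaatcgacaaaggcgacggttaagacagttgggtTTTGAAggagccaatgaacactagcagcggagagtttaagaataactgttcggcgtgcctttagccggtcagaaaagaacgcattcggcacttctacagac
Gins1, chr3:160184670-160184969, plus strand: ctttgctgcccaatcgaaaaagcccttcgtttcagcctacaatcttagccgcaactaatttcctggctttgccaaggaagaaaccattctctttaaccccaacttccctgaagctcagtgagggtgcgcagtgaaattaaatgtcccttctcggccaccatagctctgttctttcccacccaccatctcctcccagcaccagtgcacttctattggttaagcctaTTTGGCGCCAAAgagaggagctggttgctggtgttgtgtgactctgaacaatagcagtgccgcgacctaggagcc
The Cdk1 promoter holds TTTGAA at 2 places, Cdc20 at 1, and Gins1 holds TTTGGCGC at 2 places that overlap on opposite strands. TTTGAA stood in 22 of the 31 promoters matched to the 37 mitosis genes that fell (71.0%), against 12.1% of the 8489 promoters matched to all genes tested. It stood in 66.7% of the 45 promoters matched to all 51 mitosis genes tested, and in 13.3% of the 15 matched to the 18 replication genes that fell. TTTGGCGC stood in 5 of those 15 (33.3%), against 0.836% of promoters of genes tested. It stood in 25.7% of the 35 promoters matched to all 43 replication genes tested. Of the 31 promoters of mitosis genes that fell, 0 held it. A second E2F sequence, TTTCCCGC, stood in 2 of the 15 (13.3%) and in 17.1% of the 35, against 1.91%. The CCAAT box was found in 67.7% of the 31, 71.1% of the 45 and 37.2% of all. Whether the genes that fell differed in these motifs from the rest of their list was not tested. A match describes the letters in this window and is not a binding site. The promoter table held no entry for Ccna2 or E2f1.

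**Figure D3:**
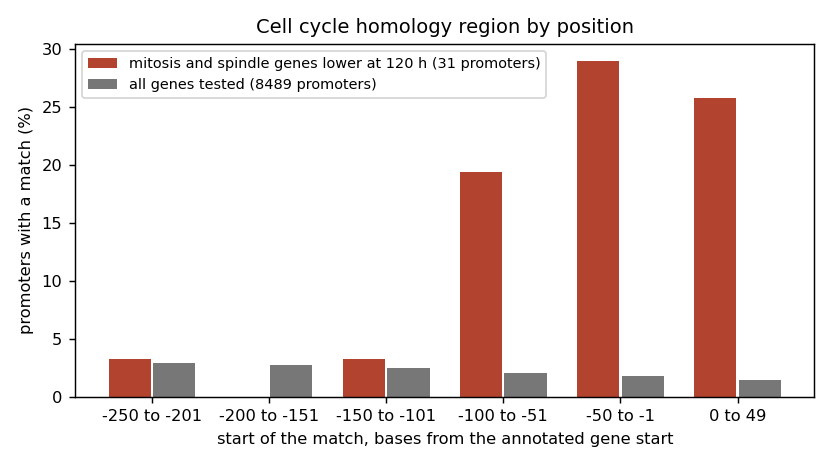
Share of promoters (y axis, percent) in which a cell cycle homology region starts within each 50-base window (x axis, bases from the annotated gene start, where 0 is its first base), for the 31 promoters of mitosis and spindle genes lower at 120 h (red) and the 8489 of all genes tested (grey). The mitosis genes reach 29% in the 50 bases before the start, against 1.78% of all genes.

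Acute phase genes moved in 3 of 20 tested members, all lower at 120 h, against the 1.61% of all genes that were lower: haemopexin and the 2 measured fibrinogen chains. The list's median difference was -0.02, so the fall was not shared by most members. The count was 1 without 24 h replicate 2, 24 h replicate 3, 120 h replicate 1 or 120 h replicate 3, and 4 without 120 h replicate 2. It was also 1 with no filter on dim probes, in a fit of only the arrays compared and in a fit of the 12 cortex arrays.

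Hpx encodes haemopexin, the plasma protein that binds free haem. It had 4.87, 5.19 and 5.17 at 120 h, against 7.19, 7.71 and 8.63 at 24 h. The 120 h arrays lay close together and every 24 h array stood well above them. Hpx fell by 2.76 ± 0.24 (6.80-fold lower, adjusted p = 8.4e-06), in all 6 fits without 1 array. The Hpx difference was -1.81 with quantile normalization alone and -1.47 on the authors' values, with adjusted p of 0.000107 and 0.000207. Its means were 4.83 in sham cortex, 4.68 at 6 h, 7.84 at 24 h and 5.08 at 120 h, so that the high level was seen at 24 h only among these times. Detection was weak in sham cortex, on 1 of 3 arrays.

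Fgb and Fgg encode the beta and gamma chains of fibrinogen. The alpha chain, Fga, was not analysed here. Fgb had 7.48, 9.15 and 8.34 at 120 h, against 9.86, 10.57 and 12.16 at 24 h. Both groups spread widely, but the highest 120 h array lay below the lowest 24 h array. Fgb fell by 2.54 ± 0.60 (5.80-fold lower, adjusted p = 0.0297). Fgg had 5.84, 8.31 and 7.34 at 120 h, against 8.46, 10.06 and 10.75 at 24 h, and fell by 2.59 ± 0.65 (6.04-fold lower, adjusted p = 0.0407). Neither chain passed without 24 h replicate 2 or 3, or without 120 h replicate 1 or 3: adjusted p lay between 0.0804 and 0.139 for Fgb and between 0.112 and 0.172 for Fgg, and the differences then between -2.68 and -1.89 and between -2.68 and -1.93. Both calls also ended with no filter on dim probes (adjusted p = 0.0612 for Fgb and 0.0798 for Fgg), with only the arrays compared (0.0906 and 0.124) and with the 12 cortex arrays (0.0855 and 0.105). At 120 h Fgb was still 3.47 above sham (adjusted p = 0.00191) and Fgg 2.39 above it (adjusted p = 0.037). The promoters of both chains are shown, with the sequence CTGGGAA, the interleukin-6 response sequence of liver acute phase genes, in capitals and searched on both strands.
Fgb, chr2:170700826-170701125, minus strand: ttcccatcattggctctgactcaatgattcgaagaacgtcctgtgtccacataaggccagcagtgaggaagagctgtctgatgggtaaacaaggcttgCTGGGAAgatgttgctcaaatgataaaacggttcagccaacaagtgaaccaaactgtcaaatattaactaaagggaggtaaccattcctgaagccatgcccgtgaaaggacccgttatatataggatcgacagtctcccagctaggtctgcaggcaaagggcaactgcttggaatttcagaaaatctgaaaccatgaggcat
Fgg, chr2:170652833-170653132, plus strand: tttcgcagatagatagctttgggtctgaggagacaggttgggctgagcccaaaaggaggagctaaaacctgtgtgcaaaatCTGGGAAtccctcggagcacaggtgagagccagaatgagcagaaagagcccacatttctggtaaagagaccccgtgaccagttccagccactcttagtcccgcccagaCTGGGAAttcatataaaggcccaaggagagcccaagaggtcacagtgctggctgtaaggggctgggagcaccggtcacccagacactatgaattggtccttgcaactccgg
It stood once in the Fgb promoter and at 2 places in that of Fgg and stood in 11.3% of promoters of genes tested. Both genes lie on chromosome 2.

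Of the MHC class II genes, which present antigen on macrophages, dendritic cells and B cells, 3 rose and 9 did not pass. Of 12 tested, 3 passed as higher and 0 as lower, against the 0.939% of all genes that were higher, and the median difference was 0.51. Without 120 h replicate 3 the count was again 3, and without any other array it was 1. It was 1 with the 12 cortex arrays, 5 with array weights and 0 at an adjusted p under 0.01. The cells that carry class II are given beside it below, and their part in the result was not tested. The list's mean level was 9.70, 9.93 and 9.64 on the 120 h arrays, against 9.33, 9.03 and 9.14 on the 24 h arrays, and all 3 of 120 h were the higher ones.

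RT1-Db1, the beta chain of the rat class II D molecule, had 11.36, 11.23 and 11.06 at 120 h, against 9.56, 9.55 and 9.37 at 24 h. It rose by 1.72 ± 0.36 (3.30-fold, adjusted p = 0.0122), a call that ended without 120 h replicate 1 (1.65, adjusted p = 0.0571). Its 24 h level differed from sham by -0.03 (adjusted p = 0.963). Cd74, the invariant chain that chaperones class II molecules, had 11.51, 11.33 and 11.10 at 120 h, against 10.17, 10.35 and 10.15 at 24 h, and rose by 1.09 ± 0.24 (adjusted p = 0.0198). The Cd74 call held without 120 h replicate 3 and ended without each of the other 5 arrays (adjusted p 0.0539 to 0.0869) and in the fit of the 12 cortex arrays (0.0993). RT1-Da, the alpha chain, had 12.74, 13.36 and 12.70 at 120 h, against 12.07, 12.20 and 12.01 at 24 h. It rose by 0.84 ± 0.20 (adjusted p = 0.0259), which ended without any 24 h array or without 120 h replicate 2, with adjusted p of 0.0702 to 0.123, and under median scaling (0.75, adjusted p = 0.0852), with only the arrays compared (0.0757) and with the 12 cortex arrays (0.0645). RT1-Ba (0.97), RT1-DMa (0.72) and the class II transactivator Ciita (0.55) did not pass. The RT1-Da promoter is shown because it holds an X box, the element bound by the RFX complex that class II promoters share. Capitals mark the X box core and a CCAAT box, the Y box of these promoters, both searched on both strands.
RT1-Da, chr20:4515165-4515464, plus strand: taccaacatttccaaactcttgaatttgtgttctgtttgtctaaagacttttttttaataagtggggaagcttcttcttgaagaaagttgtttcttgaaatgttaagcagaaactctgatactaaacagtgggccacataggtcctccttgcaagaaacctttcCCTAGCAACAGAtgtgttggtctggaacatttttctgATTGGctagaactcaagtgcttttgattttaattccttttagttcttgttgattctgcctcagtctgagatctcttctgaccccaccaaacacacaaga
The X box core stood in 20.0% of the 10 promoters matched to the 12 class II genes, against 0.13% of those of genes tested, and the CCAAT box in 90.0% against 37.2%.

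Other leukocyte genes gave no member past the threshold at 120 h against 24 h: 0 of 46 for monocytes and macrophages, 0 of 33 for T and NK cells, 0 of 11 for neutrophils, 0 of 6 for B cells and 0 of 10 for dendritic and mast cells. Of all genes, 0.939% were higher and 1.61% lower, a share at which lists this small can hold none. The median differences of the leukocyte lists were 0.22, 0.21, -0.07, -0.20 and 0.14. These medians moved with single arrays: without 120 h replicate 2 the macrophage median was 0.06 and the T and NK cell median 0.07, and without 24 h replicate 2 the macrophage median was 0.09. The dendritic and mast cell median was 0.04 without 120 h replicate 1 and 0.05 without 24 h replicate 2, the B cell median -0.10 without 24 h replicate 1 and the neutrophil median 0.02 without 120 h replicate 3. By limma's unadjusted p under 0.05, 4 macrophage genes were higher and 1 lower, 2 T and NK cell genes, 1 B cell gene and 1 dendritic or mast cell gene were higher, and 1 neutrophil gene was lower. Mrc1, the macrophage mannose receptor, had 6.29, 7.20 and 7.43 at 120 h, against 5.61, 4.78 and 5.29 at 24 h, and its difference was 1.75 ± 0.47 (adjusted p = 0.0525). Clec10a, a macrophage lectin, had 8.89, 9.34 and 8.76 at 120 h, against 7.94, 6.85 and 6.97 at 24 h, with a difference of 1.74 ± 0.47 (adjusted p = 0.0575). In both the groups did not overlap. Over the alternatives run, the adjusted p ranged from 0.00657 to 0.248 for Mrc1 and from 0.0147 to 0.252 for Clec10a, so that some settings put both past the threshold; both passed in a fit of the 12 cortex arrays. Clec10a was 2.25 above sham at 120 h (adjusted p = 0.00806). Against sham, 15 of 46 macrophage genes passed as higher at 24 h and 9 at 120 h, and 3 and 7 of 33 T and NK cell genes. Neutrophil, B cell and dendritic or mast cell lists had 3, 1 and 0 higher at 24 h and 1, 1 and 0 at 120 h. Of T and NK cell and of dendritic or mast cell genes, 1 each was lower at 24 h. Among all genes 14% were higher at 24 h and 3.07% at 120 h. These comparisons share arrays with the late step. The summed macrophage level was 25029, 34237 and 22270 at 120 h, against 29670, 21134 and 27438 at 24 h. The macrophage list's mean level was 7.41, 8.14 and 7.37 at 120 h, against 7.67, 7.04 and 7.47 at 24 h: replicate 2 of 120 h was the highest and the groups overlapped.

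Cd3g, a T cell receptor chain, had 6.03, 7.71 and 6.41 at 120 h, against 6.19, 6.14 and 5.92 at 24 h (difference 0.64, adjusted p = 0.401), and S100a8, a neutrophil calcium-binding protein, 7.54, 7.12 and 5.63 against 7.55, 6.61 and 7.75 (difference -0.54, adjusted p = 0.707). The chemokine Ccl2, which recruits monocytes, had 8.03, 9.75 and 7.68 at 120 h, against 7.36, 6.82 and 8.52 at 24 h (difference 0.92, adjusted p = 0.447). Replicate 2 of 120 h was the highest array for Cd3g and Ccl2. Il1b, an inflammatory cytokine, was high on replicate 1 of each time: 10.37, 7.54 and 7.81 at 120 h, against 9.38, 6.61 and 6.89 at 24 h. No chemokine or cytokine passed in limma of 36 tested (1 higher by unadjusted p under 0.05). No interferon-induced gene of 42 passed (1 higher and 1 lower by unadjusted p). With 0.939% of all genes higher and 1.61% lower, lists of this size can hold none. The class I gene RT1-A2 was at 4.53, 12.69 and 10.67 at 120 h, and was not detected on the first of these arrays, against 11.08, 10.76 and 12.05 at 24 h (difference -2.0, adjusted p = 0.754). Without 120 h replicate 1 the difference was 0.39. A single low array was also seen at 6 h, where RT1-A2 had 5.13, 10.77 and 11.38.

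In the complement list, 1 of 25 members rose and 1 fell, beside 0.939% higher and 1.61% lower among all genes. Cfp, properdin, which stabilises the alternative pathway convertase, had 8.10, 8.87 and 8.06 at 120 h, against 7.72, 7.18 and 7.17 at 24 h, and rose by 0.99 ± 0.26 (adjusted p = 0.0479). Its call ended in 5 of the 6 fits without 1 array (adjusted p 0.0692 to 0.212) and held without 24 h replicate 1. It also ended with no filter, with only the arrays compared, with the 12 cortex arrays, with the replicate block and with a variance trend (0.0549 to 0.115). Cd59b, an inhibitor of the membrane attack complex, fell by 0.81 ± 0.21 (adjusted p = 0.0438), and that call ended in 5 of 6 such fits (adjusted p 0.0705 to 0.203) and held without 120 h replicate 2. It ended too with no filter, only the arrays compared, the 12 cortex arrays or a variance trend (0.051 to 0.0811).

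**Figure D4:**
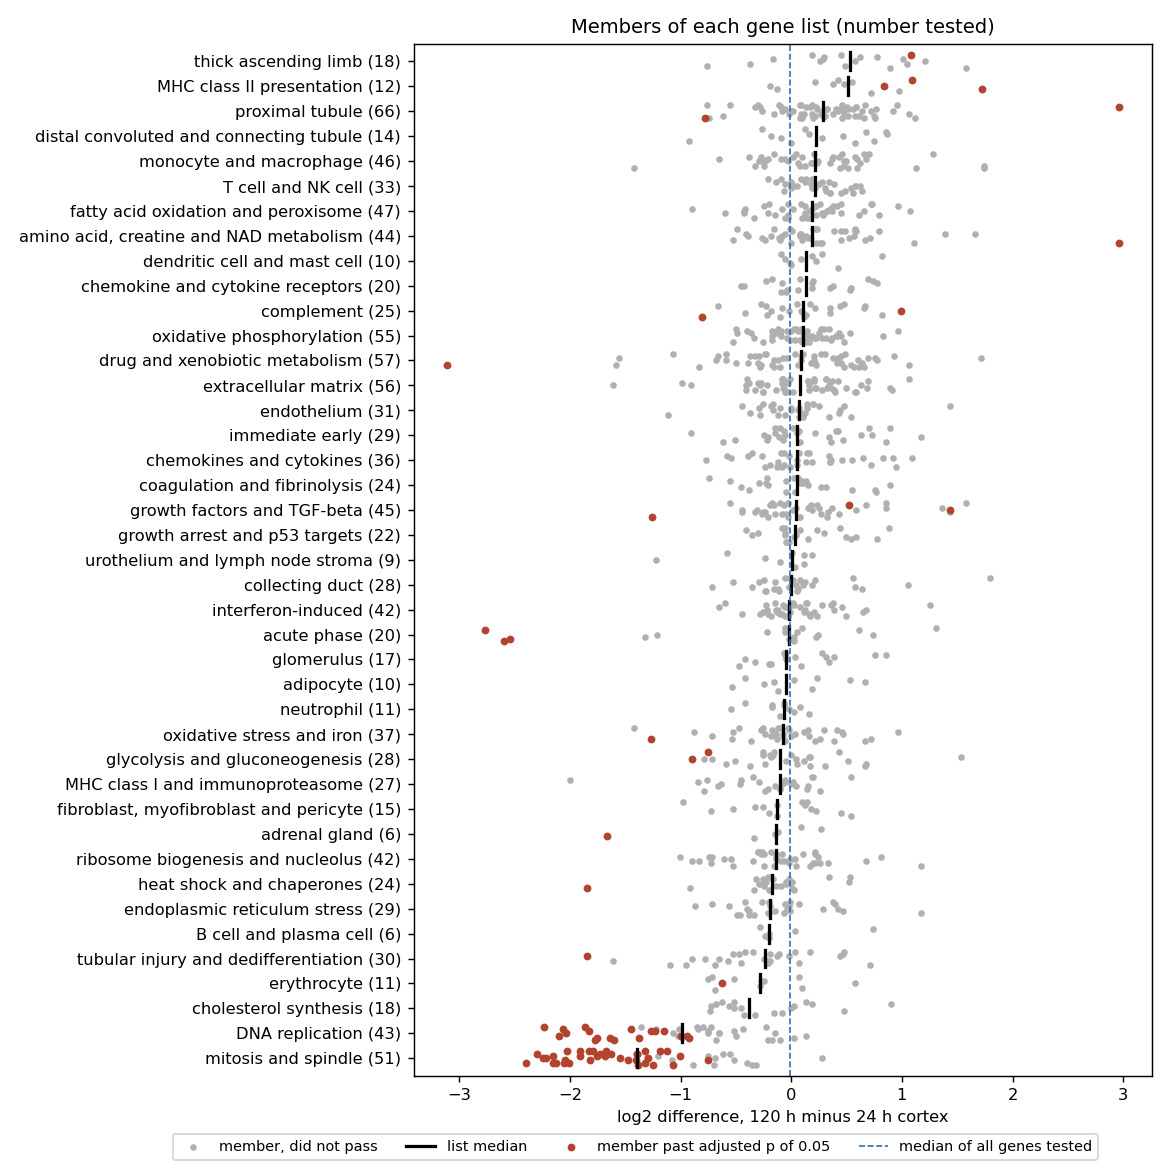
Log2 difference of 120 h minus 24 h cortex (x axis) for each member of 41 gene lists (y axis, number tested in brackets), with members past the adjusted p threshold in red, others in grey, list medians as black bars and the median of all 9799 genes tested as a dashed line. Mitosis and DNA replication genes lie at the bottom with medians of -1.39 and -0.99, and thick ascending limb and MHC class II genes at the top with 0.53 and 0.51. The mitosis median is -0.85 on the authors' values, and the thick ascending limb median 0.29 without 24 h replicate 3.

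Among the named genes that passed as higher, the largest change was in Gatm, the proximal tubule enzyme of the first step of creatine synthesis. It had 11.18, 11.59 and 12.17 at 120 h, against 8.97, 7.53 and 9.57 at 24 h, and rose by 2.96 ± 0.62 (7.78-fold, adjusted p = 0.0132). The call ended without 24 h replicate 2, the lowest array (2.38, adjusted p = 0.102), or 120 h replicate 3, the highest (2.70, adjusted p = 0.0772). Gatm averaged 13.13 in sham cortex, 9.72 at 6 h, 8.69 at 24 h and 11.65 at 120 h, and its difference from sham at 120 h was -1.49 (adjusted p = 0.176). Hpgd, which inactivates prostaglandins, had 11.31, 12.04 and 12.10 at 120 h, against 9.52, 10.42 and 9.45 at 24 h, and rose by 2.02 ± 0.40 (adjusted p = 0.0093), a call that ended without 120 h replicate 3 (1.88, adjusted p = 0.0577). At 120 h Hpgd was 1.84 above sham (adjusted p = 0.00997), whereas at 24 h it differed from sham by -0.18 (adjusted p = 0.794).

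Outside MHC class II, the other large rises among the named genes were in genes that were low at 24 h relative to sham. Cbx6, a polycomb protein, had 6.79, 6.63 and 7.27 at 120 h, against 5.07, 4.67 and 5.02 at 24 h, where 2 of 3 arrays detected it, and rose by 1.97 ± 0.24 (adjusted p = 0.000263). Its difference from sham was -2.78 at 24 h (adjusted p = 2.52e-07) and -0.81 at 120 h (adjusted p = 0.0524). Dmtn, the actin-bundling protein dematin, rose by 1.58 ± 0.24 (adjusted p = 0.000996). Cluh, which binds messages of mitochondrial proteins, rose by 1.59 ± 0.26 (adjusted p = 0.00232), Pbxip1, a partner of PBX factors, by 1.60 ± 0.31 (adjusted p = 0.00749), and Lemd2, an inner nuclear membrane protein, by 1.55 ± 0.27 (adjusted p = 0.00394). These 5 genes passed in all fits without 1 array. On the authors' values Cbx6, Dmtn and Lemd2 differed by 0.90, 0.93 and 0.95, and Cbx6 by 1.16 with quantile normalization alone and 1.25 with an offset of 50.

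Glis2, a zinc finger factor mutated in nephronophthisis, rose by 1.62 ± 0.33 (adjusted p = 0.00958), a call that ended without 24 h replicate 2 (1.56, adjusted p = 0.053) or with the 12 cortex arrays (0.0518), and its difference was 1.04 with quantile normalization alone and 0.83 on the authors' values. The membrane carbonic anhydrase Car12 rose by 1.66 ± 0.39 (adjusted p = 0.0263) and remained below sham at 120 h, by a log2 difference of -1.80 (adjusted p = 0.00904). Nbr1, a selective autophagy receptor, rose by 1.59 ± 0.35 (adjusted p = 0.0197), and Epn1, the endocytic adaptor epsin, by 1.58 ± 0.34 (adjusted p = 0.0145). The Car12 call ended without 24 h replicate 2 or 3 or 120 h replicate 1 or 3 (adjusted p 0.0768 to 0.143). That of Nbr1 ended without 24 h replicate 1 or 2 or 120 h replicate 1 or 3 (0.0593 to 0.108), and that of Epn1 without 24 h replicate 2 or 120 h replicate 1 or 3 (0.0547 to 0.0847). The Car12 call also ended with no filter (0.0512) and with the 12 cortex arrays (0.103), as did that of Nbr1 with the 12 cortex arrays (0.0886); Nbr1 differed by 1.06 on the authors' values. Gna12, a G protein alpha subunit (1.79 ± 0.45, adjusted p = 0.0391), Apmap, a membrane protein described in fat cells (1.74 ± 0.44, adjusted p = 0.0434), and the zinc exporter Slc30a1 (1.61 ± 0.41, adjusted p = 0.0434) lost their calls without any 1 of the 6 arrays, with adjusted p of 0.0528 to 0.21. All 3 also lost their call with no filter (0.0729 to 0.0819) and with the 12 cortex arrays (0.117 to 0.155), Gna12 and Apmap under median scaling (0.0501 and 0.0604), and Gna12 and Slc30a1 under an offset of 50, quantile normalization alone and the authors' values (0.0533 to 0.122). On the authors' values Gna12 and Slc30a1 differed by 1.17 and 0.78, and Slc30a1 by 0.99 with quantile normalization alone.

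Of 66 proximal tubule genes tested, 1 rose, Gatm, and 1 fell (1.52% each), beside 0.939% higher and 1.61% lower among all genes. The list's median difference was 0.29, which was 0.12 without 24 h replicate 3 and 0.45 without 120 h replicate 2. The fall was that of Fut9, a fucosyltransferase detected on 1 of 3 arrays at 120 h and 3 of 3 at 24 h (-0.78 ± 0.19, adjusted p = 0.0357), and of the fits without 1 array its call held only without 24 h replicate 2. It ended too with only the arrays compared (0.0536), the 12 cortex arrays (0.0858), quantile normalization alone (-0.42, adjusted p = 0.0622) and the authors' values (-0.31, adjusted p = 0.066), and Fut9 differed by -0.41 with an offset of 50. Slc34a1, the phosphate transporter, had 13.52, 12.98 and 13.33 at 120 h, against 13.01, 12.36 and 11.60 at 24 h (difference 0.95, adjusted p = 0.564). Thick ascending limb genes had a median of 0.53, which was 0.29 without 24 h replicate 3, and 1 of 18 past the threshold: Irx1, a transcription factor (1.09 ± 0.24, adjusted p = 0.017). A second Irx1 probe gave -0.01 (adjusted p = 0.989), and the call ended without 24 h replicate 1 or 3 or 120 h replicate 2 or 3 (adjusted p 0.0614 to 0.0892), with only the arrays compared (0.0577) or on the authors' values (0.61, adjusted p = 0.0591). Umod, the uromodulin gene of that segment, had 13.79, 13.62 and 13.93 at 120 h, against 13.22, 14.24 and 10.85 at 24 h (difference 1.01, adjusted p = 0.373); the low value of 24 h replicate 3 was the widest departure. No gene passed in limma of 47 for fatty acid oxidation (median 0.19), 55 for oxidative phosphorylation (0.10), 28 for collecting duct (0.00) or 17 for glomerulus (-0.04). By unadjusted p under 0.05, 3 were higher and 2 lower in each of the first pair of lists, 3 higher in collecting duct and 2 higher in glomerulus.

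Of 30 injury genes, 1 passed, as lower (3.33%), beside 1.61% of all genes. Cryab, a small heat shock protein, had 10.18, 11.08 and 11.10 at 120 h, against 12.21, 13.43 and 12.25 at 24 h, and fell by 1.84 ± 0.38 (adjusted p = 0.0114), a call that ended without 24 h replicate 2 (-1.44, adjusted p = 0.0911) or 120 h replicate 1 (-1.54, adjusted p = 0.0699), with only the arrays compared (0.0612) and with the 12 cortex arrays (0.0896). The secreted marker Lcn2 had 10.43, 13.23 and 11.57 at 120 h, against 11.48, 11.36 and 12.44 at 24 h. Its difference was -0.02 ± 0.54 (adjusted p = 0.989), and the 120 h arrays covered the whole range of the 24 h arrays. Osteopontin, Spp1, had 14.19, 14.56 and 14.49 at 120 h, against 14.61, 14.64 and 14.57 at 24 h, and clusterin, Clu, 13.26, 14.63 and 14.28 against 14.57, 14.24 and 14.61. These levels lie near the top of the normalized scale, 14.775, where differences are compressed. Lcn2, Spp1 and Clu were 4.31, 3.06 and 3.37 above sham at 120 h (adjusted p = 0.00014, 9.37e-08 and 4.22e-05). Timp1, an inhibitor of matrix proteases, had 9.51, 10.95 and 8.90 at 120 h, against 11.11, 10.66 and 12.42 at 24 h (difference -1.61, adjusted p = 0.343). Krt20, a keratin, was not above background on any 120 h array, with a mean of 4.71 there against 5.80 at 24 h. Its difference was -1.09 (at least 1.92-fold lower, adjusted p = 0.115) and -0.69 without 24 h replicate 3, the highest array. Vim differed by -0.11 (adjusted p = 0.919).

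The largest fall among the named genes past the threshold was in Fam25a, with 6.48, 5.0 and 5.41 at 120 h, against 8.53, 9.86 and 8.82 at 24 h. It fell by 3.44 ± 0.57 (10.9-fold lower, adjusted p = 0.00213), in all fits without 1 array. Fam25a differed by -2.22 on the authors' values, and at 120 h differed from sham by 0.17 (adjusted p = 0.923). Cyp3a9, a cytochrome P450, had 5.24, 6.67 and 6.31 at 120 h, against 8.12, 9.32 and 10.09 at 24 h, and fell by 3.11 ± 0.62 (8.62-fold lower, adjusted p = 0.0093). Its call ended without 24 h replicate 3 (-2.65, adjusted p = 0.0521) or 120 h replicate 1 (-2.69, adjusted p = 0.0593), and with the 12 cortex arrays (0.0858). Cyp3a9 was the 1 of 57 drug metabolism genes that passed, beside the 1.61% of all genes that were lower. Nqo1, a quinone reductase induced by oxidative stress, fell by 1.27 ± 0.29 (adjusted p = 0.0251), the 1 of 37 in its list. The Nqo1 call ended without 24 h replicate 2 or 3 or 120 h replicate 1 or 3 (adjusted p 0.0611 to 0.137), and on the authors' values (0.056).

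Smaller changes were scattered over other lists, and the counts below stand beside 0.939% of all genes higher and 1.61% lower. Ltbp2, a matrix protein that resembles the binding proteins of latent TGF-beta, had 6.70, 7.60 and 7.81 at 120 h, against 5.84, 5.98 and 5.98 at 24 h, and rose by 1.44 ± 0.28 (adjusted p = 0.00804), a call that ended without 120 h replicate 3 (1.22, adjusted p = 0.0638); Ltbp2 differed by 0.80 on the authors' values. Fgf1, a fibroblast growth factor, fell by 1.26 ± 0.30 (adjusted p = 0.0314). Of the fits without 1 array this call held only without 24 h replicate 1, it ended too with no filter (0.055) and with the 12 cortex arrays (0.0943), and Fgf1 differed by -0.72 on the authors' values. Igfbp7 rose by 0.52 ± 0.12 (adjusted p = 0.0317), which ended without any 1 array (adjusted p 0.0555 to 0.171) and under median scaling (0.38, adjusted p = 0.406), the strict filter, a variance trend, only the arrays compared and the 12 cortex arrays (0.0512 to 0.114). They were 3 of 45 growth factor genes. No extracellular matrix gene of 56 passed in limma, with 3 higher and 1 lower by unadjusted p under 0.05: Fn1, fibronectin, differed by 0.02 (adjusted p = 0.989) and Col1a1, a collagen I chain, by 0.15 (adjusted p = 0.949), with 120 h replicate 2 the highest array in both. Of 28 glycolysis genes 2 were lower, Hk3, a hexokinase of blood cells (-0.90 ± 0.23, adjusted p = 0.0458), and Gapdh (-0.75 ± 0.19, adjusted p = 0.0434). Bpgm, a red cell enzyme, was the 1 of 11 in the erythrocyte list (-0.63 ± 0.14, adjusted p = 0.0197), and Hsd3b1, a steroid synthesis enzyme, the 1 of 6 in the adrenal list (-1.66 ± 0.40, adjusted p = 0.0328). The calls of Hk3 and Hsd3b1 ended in 5 of 6 fits without 1 array (adjusted p up to 0.2 and 0.181), that of Gapdh in all 6 and with no filter (0.0579), and that of Bpgm in 4, with only the arrays compared (0.0672) and with the 12 cortex arrays (0.0738). Those of Hk3 and Hsd3b1 ended too with an offset of 50, quantile normalization alone, the authors' values, no filter and only the arrays compared (0.0525 to 0.0826), and that of Hk3 under median scaling (0.0604) and a variance trend (0.0538). On the authors' values Hk3 and Hsd3b1 differed by -0.37 and -0.76, with quantile normalization alone by -0.49 and -0.98, and with an offset of 50 by -0.54 and -1.05. No gene passed for cholesterol synthesis (0 of 18, median -0.38), endoplasmic reticulum stress (0 of 29, -0.20), ribosome biogenesis (0 of 42, -0.14) or p53 targets (0 of 22, 0.03). By unadjusted p under 0.05 in limma, 6, 5, 5 and 0 genes of these lists were lower and 1, 1, 3 and 2 higher.

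The step from 24 h to 120 h in medulla shares no array with that of cortex and was set beside it. In medulla 408 of 9799 genes (4.16%) passed, and mitosis genes had a median difference of -1.24, with 31 of 51 lower, against 1.97% of all genes there. Replication genes had -1.10, with 22 of 43 lower. Gatm rose there by 3.94 (adjusted p = 0.00287) and Hpgd by 2.34 (adjusted p = 0.00394), beside 2.96 and 2.02 in cortex. The proximal tubule list, which holds Gatm, had a median of 1.24 in medulla, with 17 of 66 higher, against 215 of all 9799 genes there. In cortex its median was 0.29, with 1 of 66 higher. Genes used to check the cortex label moved in medulla as well. At 120 h and 24 h there, Slc34a1 averaged 11.23 and 8.23, Slc22a6 9.41 and 7.93, Slc5a2 6.15 and 5.17, and Nphs1 6.13 and 5.47. Podxl went the other way, at 10.13 and 10.76, and Kap hardly differed (14.3 and 14.26). Whether the medulla samples held differing amounts of cortex was not tested. The difference between the steps, cortex minus medulla, was tested over all 14390 probes and passed for 1 (0.00695%), Hpx, while 273 had an unadjusted p under 0.05. In a fit of only the arrays compared 0 probes passed, so the Hpx call ended there. Hpx fell by 2.76 in cortex, whereas its medulla difference was 0.19 (adjusted p = 0.744), a difference between the steps of -2.96 ± 0.35 (adjusted p = 0.000777). Fgb and Fgg differed by -2.54 and -2.59 in cortex and by 0.12 and -0.13 in medulla, and the difference between the steps did not pass for either (-2.66 and -2.46, adjusted p = 1 for both). The labels do not say whether cortex and medulla of the same number came from 1 rat.

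**Figure D5:**
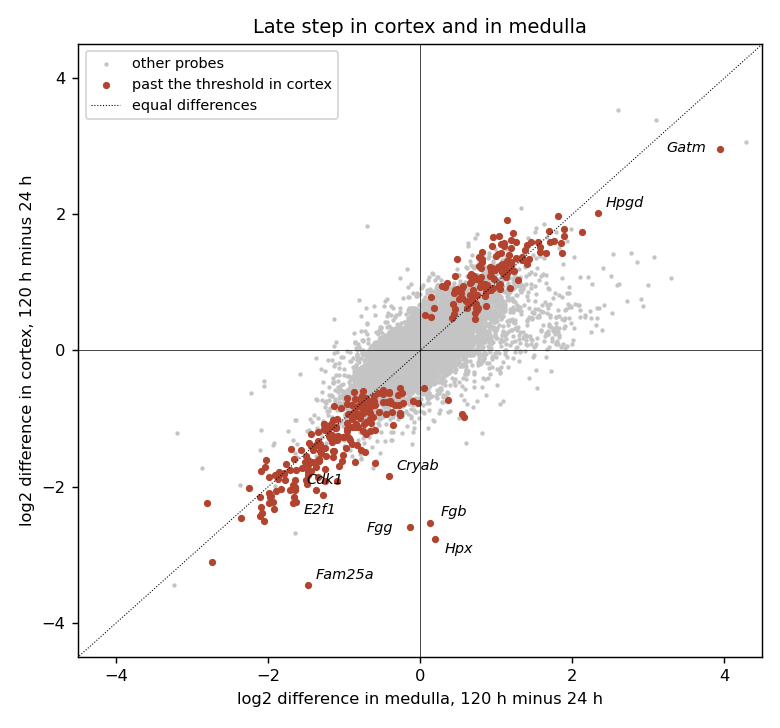
Log2 difference of 120 h minus 24 h in cortex (y axis) and in medulla (x axis) for each of 14390 probes, with those past the threshold in cortex in red and a dotted line where the steps are equal. Gatm, Hpgd, Cdk1 and E2f1 lie in the same direction in both regions, and Hpx, Fgb and Fgg lie near 0 in medulla and below -2 in cortex.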

How the data were processed

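The authors' deposited table gave, for 24 arrays, 1 intensity per probe, not normalized per the file headers. It also gave a deposited detection value, a fraction from 0 to 1 headed as a p-value but higher for brighter probes (Spearman 0.921 with intensity), so the detection p was taken as 1 minus it. A second deposited table held the authors' log2 values of the same arrays and was used as an alternative. The scanner software, its background handling and the authors' normalization are not given in the sources used here. Of 22523 probes, 13793 had 1 gene symbol, 0 had several and 8730 had none in the platform annotation.

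Intensities were corrected by normexp with the detection p (neqc, offset 16), quantile-normalized and put on the log2 scale in limma 3.58.1 under R 4.3.3. The 14390 probes detected (p under 0.05) on 3 or more of the 24 arrays were fitted with 8 group means (16 residual and 3.34 prior degrees of freedom) and Benjamini-Hochberg adjustment. The number of arrays, 3 per group, limits the precision. An exact permutation test of 3 against 3 arrays cannot go below p = 0.1, so none was run for single genes. The fit, tested on simulated data with 200 changed probes, recovered 97% of log2 changes of 2 (13 false calls) and 62% of log2 changes of 1 (14 false calls). The simulated noise was normal and independent between probes, with the same spread for a probe on every array. It held no differences in quality between arrays, so these shares may not hold for the real arrays.

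Gene lists use the probe with the highest mean per gene. Genes named are the 15 largest differences per direction among called probes, up to 6 called members per list and direction, up to 2 members of lists without calls, and a set of kidney injury, cell cycle and tubule genes always given. The members and lists were chosen with earlier results of these data known. A few other genes were named after their values were seen: Kif11, RT1-Ba, RT1-DMa and Ciita. For a gene with no detected array in a group, a bound replaces the fold: the mean of the other group over the higher of the dim probe's own signal and the lowest detected signal per array. Promoters came from RefSeq (GRCr8) and matched 42 of the 51 named genes past the threshold. Alternatives changed the background correction, normalization, filter, arrays in the fit, array weights, variance model and threshold, left out each array, and added the replicate number as a block. The rats of 24 h and 120 h were different animals, so the main fit did not take the numbers as pairs. Same-numbered arrays of 120 h and 24 h had deviations correlated at 0.246, -0.0739 and 0.0117. Replicates 1 and 3 matched their own number best, and replicate 2 did not. Tables and figures used Python 3.11.15, pandas 2.3.3 and matplotlib 3.10.9.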

Additional observations from a re-analysis of the deposited data

Results flagged for a closer look

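Hpx is listed because its step from 24 h to 120 h differed between cortex and medulla by the test of the difference itself: -2.96 ± 0.35 (log2, SE, adjusted p = 0.000777). It was the 1 probe of 14390 that passed this test. With only the arrays compared in the fit 0 probes passed, so this call ended. All 3 cortex arrays of 120 h lay below all 3 of 24 h, and the medulla means were close to each other.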

How the results depend on the processing

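Against 337 probes called (128 higher, 209 lower), fitting only the arrays compared called 458 (211 and 247), the 12 cortex arrays 206 (49 and 157), array weights 1997 (1087 and 910), an adjusted p under 0.01 119 (22 and 97) and a change of at least 2-fold as well 220 (77 and 143). Leaving out 1 cortex array of the comparison gave 135 to 232 (26 to 90 higher, 88 to 158 lower). The share of higher calls was 38%, against 23.8% with 12 cortex arrays, 18.5% at 0.01, 54.4% with weights and 28.8% with median scaling, which called 347 (100 and 247). The other settings of normalization, filter and variance model called 260 to 379. The replicate block, which pairs only numbers, called 371 (142 and 229) and ended the Cfp call (adjusted p = 0.0607) alone among the 51 named. Without sham medulla replicate 1, an alternative chosen after seeing the data, 391 were called (155 and 236). The region difference called 1 probe, 0 with only the arrays compared, 2 with weights, 1 with the replicate block, and 1 to 2 with 1 array left out. None of the 51 named calls changed direction under any alternative run; of the 41 list medians, 18 changed sign under at least 1, all of them 0.125 or less in size as reported. Leaving out 1 array moved 38 of the 41 medians by over 1.5 times; the exceptions were mitosis, DNA replication and MHC class II. Of the 51 named calls, 27 to 51 held under other settings and 28 to 39 with 1 array left out. DNA replication had 30 lower members with weights and 10 at 0.01, and MHC class II had 1 higher member with 12 cortex arrays, 5 with weights and 0 at 0.01. The cause of these shifts was not tested. Genes near background and those near the top of the scale have compressed differences.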
